A study of Homo sapiens with 44 samples.

Results

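The 10 genes described here encode Wnt receptors of the cell surface and secreted proteins of families that bind Wnt ligands or their co-receptors. They are the secreted Frizzled-related proteins SFRP1, SFRP2, SFRP5 and FRZB, the Dickkopf proteins DKK2 and DKK3, and the Frizzled receptors FZD4, FZD5, FZD7 and FZD10. Members were taken by symbol, through GENCODE release 29, from the table of estimated counts, and all 10 of 10 were found among its 60499 gene identifiers. They were followed in 44 wells of the established embryonic stem cell line H1 (human) during differentiation towards heart cells. Pluripotent H1 cells were kept on the laminin LN-521 (3 wells). All other wells carried LN-521 with LN-221 and were sampled at days 0, 1, 3, 14, 20, 30 and 90 (3 wells each) and at days 5, 7, 9 and 11 (5 wells each). For day 11 the series text speaks of 3 wells and the labels list 5, which were all kept. From day 0 the cells received CHIR99021, which inhibits the kinase GSK3 and so turns on the intracellular Wnt pathway. IWP2, which blocks the secretion of Wnt ligands, was given at day 3. Day 0 wells were in stem cell medium, wells of days 1 to 9 in medium with an insulin-free supplement, and wells from day 11 on in medium with the complete supplement. All groups share 1 cell line and 1 culture series, and no group of the same day left out the agents, so time, agent and medium cannot be told apart. The labels number the wells as biological replicates of 1 line and do not say whether they were separate differentiations. The p-values therefore measure the spread between these wells, which may be technical.

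Wnt ligands are lipid-modified proteins that bind a cysteine-rich domain of Frizzled receptors and recruit the co-receptors LRP5 and LRP6, after which beta-catenin is no longer degraded. SFRP proteins carry a Frizzled-like domain without a membrane anchor and bind Wnts in the medium, while Dickkopf proteins of the DKK1 type bind LRP5 and LRP6. In the embryo, Wnt signalling drives the formation of primitive streak and mesoderm, and heart muscle forms where it is later restrained.

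FZD7 and FZD10 are encoded on the plus strand of GRCh38 and the other members on the minus strand, in the coordinates of GENCODE release 29. SFRP genes other than SFRP1 lie at chr4:153780592-153789120 (SFRP2), chr10:97766751-97771952 (SFRP5) and chr2:182833275-182867162 (FRZB). DKK2 spans chr4:106921802-107283806 and DKK3 spans chr11:11963106-12009769. The receptors lie at chr11:86945679-86955391 (FZD4), chr2:207762586-207769563 (FZD5), chr2:202034587-202038445 (FZD7) and chr12:130162459-130165740 (FZD10). The longest coding transcripts of FZD7 and FZD10 have 1 exon and those of FZD4 and FZD5 have 2, against 3 in SFRP1, SFRP2 and SFRP5 and 8 in DKK3. FZD4 overlaps the protein-coding gene PRSS23 on the opposite strand. The mean count was 2857 for FZD4 and 1812 for PRSS23, and whether counting used the strand is not given in the sources used here, so FZD4 values may hold reads of PRSS23.

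Promoters are shown for 4 members with called changes in opposite directions: SFRP5 and FZD4, which were low at day 1 and high at day 5, and SFRP2 and FZD5, which were high at day 0 and low at day 9. The sequences are the 250 bases before the RefSeq start of each gene on GRCh38.p14, read 5′ to 3′ on the minus strand. They run over chr10:97772000-97772249 for SFRP5, chr11:86955396-86955645 for FZD4, chr4:153789084-153789333 for SFRP2 and chr2:207769907-207770156 for FZD5. Capitals mark the CCAAT box (here as its reverse, ATTGG) and the GC box (GGGCGG or its reverse CCGCCC).
SFRP5: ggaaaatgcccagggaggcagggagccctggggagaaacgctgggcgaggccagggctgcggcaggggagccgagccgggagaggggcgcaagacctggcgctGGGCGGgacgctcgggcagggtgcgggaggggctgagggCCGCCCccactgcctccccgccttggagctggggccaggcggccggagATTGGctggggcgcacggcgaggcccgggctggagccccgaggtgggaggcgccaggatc
FZD4: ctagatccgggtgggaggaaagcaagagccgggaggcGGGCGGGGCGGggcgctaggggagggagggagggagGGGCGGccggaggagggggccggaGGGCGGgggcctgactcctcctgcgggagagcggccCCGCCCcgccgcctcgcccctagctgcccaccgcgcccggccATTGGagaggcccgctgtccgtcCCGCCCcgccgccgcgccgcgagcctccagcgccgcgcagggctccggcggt
SFRP2: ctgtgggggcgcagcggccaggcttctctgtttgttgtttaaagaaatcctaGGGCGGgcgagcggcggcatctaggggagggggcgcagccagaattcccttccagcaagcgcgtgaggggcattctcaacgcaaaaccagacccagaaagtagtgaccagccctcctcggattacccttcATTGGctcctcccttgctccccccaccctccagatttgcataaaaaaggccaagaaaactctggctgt
FZD5: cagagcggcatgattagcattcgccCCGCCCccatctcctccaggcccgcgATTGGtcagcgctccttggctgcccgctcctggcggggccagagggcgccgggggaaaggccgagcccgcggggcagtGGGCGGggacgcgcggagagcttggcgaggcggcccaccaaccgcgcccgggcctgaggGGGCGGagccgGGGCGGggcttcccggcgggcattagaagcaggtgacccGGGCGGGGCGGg

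Of the 10 members, 5 had a promoter in the table used (FRZB is the fifth), and each of the 5 held ATTGG, at 60 (SFRP5), 68 (SFRP2 and FRZB), 75 (FZD4) and 199 (FZD5) bases before the start. Either strand of CCAAT was found in 32.0% of 35116 promoters of the same length. GC boxes numbered 6 each in FZD4 and FZD5, 2 each in SFRP5 and FRZB and 1 in SFRP2, counting neighbouring boxes that overlap. A GC box stood in 42.6% of all promoters, and both motifs in 13.1%. GC content was 80.8% in FZD4, 76.8% in SFRP5 and FZD5, 57.6% in SFRP2 and 55.6% in FRZB, against a median of 58.0%. None of the 5 held the TCF/LEF cores CTTTGA or CTTTGT on either strand, which 11.2% and 13.7% of promoters held, or TATAAA, which 10.7% held. A match describes these letters only.

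Libraries held 6937136 to 33498022 estimated counts. All levels below are CPM (library-size scaled counts, with TMM factors) unless TPM is named. The floor used here for a detected level was 3 counts in a library, which is 0.0919 to 0.410 CPM, and some wells of low genes had fewer. Marker genes followed the labels. Summed CPM of 5 pluripotency genes (POU5F1, NANOG, SOX2, DNMT3B, TDGF1) was 5628 to 5759 in pluripotent wells and 9.50 to 16.8 at day 90. Primitive-streak genes peaked at day 1 (753 to 1237, 4 genes), and 5 cardiomyocyte genes summed to 32.0 to 37.6 at day 0 and to 10689.9 to 14185 at day 90. Day 11 wells were uneven: endoderm and liver genes (6 genes) summed to 4504 and 8596 CPM in replicates 1 and 2 and to 158 to 171 in the other 3. RNA was bulk, so fewer cells of a type and less RNA per cell cannot be told apart in any value here.

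Differences were tested over all 22955 genes that passed a low-count filter, which all 10 members passed, with edgeR's quasi-likelihood test and Benjamini-Hochberg adjustment. Called, here and below, means an adjusted p under 0.05 together with a change of 1 or more log2 units up or down. Over 13 comparisons, 38 of 130 member values were called. Of the 10 members, 6 changed from day 0 to day 1, 4 of them downwards, where 13.5% of all genes were called (3.86% higher, 9.66% lower). From day 1 to day 3, 8 members changed, 5 upwards, against 17.8% of all genes (11.0% higher, 6.80% lower). From day 3 to day 5, 5 members changed, 3 downwards, against 10.1% of all genes (5.75% higher, 4.34% lower).

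Later steps called few members. DKK3 was called at day 7 against day 5 (3.65% of all genes called) and at day 9 against day 7 (1.28%), FZD4 at day 11 against day 9 (1.63%), and FZD7 at day 30 against day 20 (2.02%). SFRP2 and FZD7 were called at day 90 against day 30 (5.09%). With edgeR, 0 members were called at day 0 against pluripotent cells (2.91%), day 14 against day 11 (0.697%) and day 20 against day 14 (0.0479%). In these 3 comparisons 0, 2 and 2 members had an unadjusted p under 0.05, DESeq2 called 0, 1 and 0, and limma on log2(TPM + 1) called 0 in each. Across the longer spans, 5 members differed between day 9 and day 0, 3 higher and 2 lower (31.7% of all genes called, 17.1% higher and 14.6% lower). Between day 90 and day 9, 8 differed (23.9% of all genes called). The median log2 change of the members was -0.95 at day 1 against day 0 and 1.15 at day 3 against day 1, while that of all genes was -0.03 and 0.07.

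**Figure D1:**
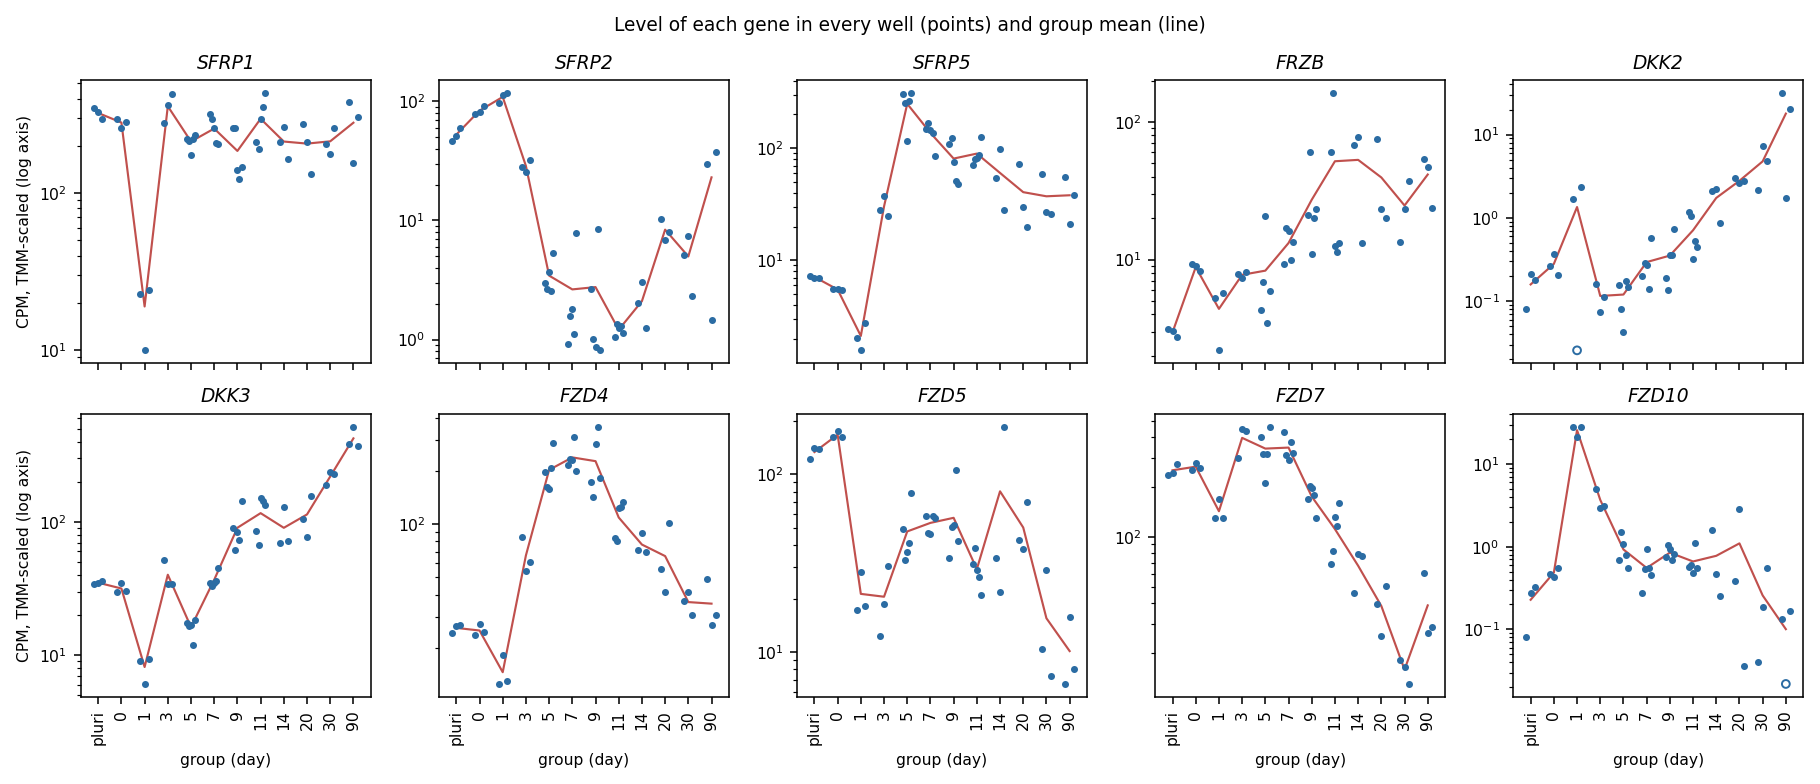
CPM of each member in every well (points; log axis) by group from pluripotent cells to day 90, with the group mean as a line; open circles at the bottom edge are wells with 0 counts. FZD10 stands at 21.0 to 28.2 CPM at day 1 and under 6 CPM in every other well, while SFRP1 is at 9.99 to 24.3 CPM at day 1 and above 100 CPM in every other well.

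SFRP1, a secreted Wnt-binding protein, was abundant at every sampled time except day 1. Its CPM was 298, 261 and 285 in the day 0 wells, 22.7, 9.99 and 24.3 at day 1, and 279, 365 and 428 at day 3. All day 1 wells lay far below all wells of the other 11 groups, and no other group was apart from its neighbours in the order of mean levels. The fall from day 0 to day 1 was 14.8-fold (log2 fold change -3.89, SE 0.36, adjusted p 2.5e-10). The rise to day 3 was 18.8-fold (log2 4.23, SE 0.37, adjusted p 1.9e-11). From day 3 on the values stayed between 123 CPM, in a day 9 well, and 433 CPM, in a day 11 well. The log2 difference of day 5 against day 3 was -0.75 (SE 0.28, adjusted p 0.062) although their wells did not overlap. It was called by limma on log2(TPM + 1) (log2 -1.06, adjusted p 0.018) and log2(TPM + 0.1) (log2 -1.09, adjusted p 0.026). Day 9 against day 0 was log2 -0.60 (SE 0.28, adjusted p 0.079), and it was called by limma on log2(TPM + 0.1) (log2 -1.03, adjusted p 0.011). The day 11 wells with high endoderm and liver genes, replicates 1 and 2, had 211 and 191 CPM, and the other 3 had 297, 355 and 433.

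SFRP2, a close relative in sequence that also binds Wnts, followed another course. Its level was highest at day 1, with 97.0, 112 and 117 CPM, above 77.6, 81.0 and 91.7 CPM at day 0 and 46.6, 51.3 and 59.6 CPM in pluripotent cells. These 3 groups did not overlap, but neither step reached the threshold (log2 0.38, SE 0.65, adjusted p 0.76 at day 1 against day 0). SFRP2 then fell to 27.9, 25.7 and 32.3 CPM at day 3 (log2 -1.93, SE 0.67, adjusted p 0.028). That call was lost when any 1 of 5 wells was left out, namely replicates 2 and 3 of day 1 and replicates 1, 2 and 3 of day 3 (adjusted p 0.056 to 0.093), and with limma on log2(TPM + 0.1) (adjusted p 0.091). A larger fall followed, to 2.98, 2.67, 3.72, 2.57 and 5.28 CPM at day 5 (log2 -3.05, SE 0.60, adjusted p 2.8e-04). All day 5 wells were below all day 3 wells. Day 11 had the lowest mean, with wells at 1.05 to 1.34 CPM.

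At day 9 the SFRP2 level was 29.8-fold lower than at day 0 (log2 -4.90, SE 0.63, adjusted p 4.1e-08). The day 9 wells had 2.65, 1.01, 0.865, 8.46 and 0.813 CPM, and leaving out replicate 4, the highest, moved the log2 value to -5.96. Late cultures differed from well to well. At day 90 the levels were 29.7, 1.46 and 37.8 CPM, against 5.17, 7.46 and 2.34 at day 30, and 1 day 90 well was below every day 30 well. The difference was called (log2 2.19, SE 0.70, adjusted p 0.045), and it was lost without any 1 of replicates 1, 3 and 10 of day 30 or replicates 2 and 5 of day 90 (adjusted p 0.075 to 0.21). It was also lost with lane as a term (adjusted p 0.11), without the libraries of RNA integrity under 8 (0.11), with only both groups in the fit (0.47) and with limma on log2(TPM + 1) (0.33) and log2(TPM + 0.1) (0.55). In the single sequencing lane with both days the log2 difference was -0.54. Against day 9 the day 90 level was higher by log2 3.04 (SE 0.60, adjusted p 9.5e-05) with overlapping wells, and by 4.10 without day 9 replicate 4. With the replicate number as a block it was log2 1.28 and not called (adjusted p 0.51). With limma it was called at log2 1.12 (adjusted p 0.022) on log2(TPM + 1) and 1.94 (adjusted p 0.017) on log2(TPM + 0.1). Fibroblast and smooth muscle genes (COL1A1, DCN, POSTN, ACTA2, MYH11, all above the floor) summed to 2486, 348 and 1574 CPM in the same day 90 wells, low where SFRP2 was low. At day 30 the sums were 1150.1, 1432 and 920.0 CPM, in the same order as SFRP2. At day 9 the order was not kept: replicate 4, with the most SFRP2, had the lowest sum, 732 CPM against 887 to 970.4 in the others. The part of these genes' cells in the result was not tested.

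SFRP5, a family member known from heart and foregut progenitors, was the most variable in level of the 4 SFRP members, with a 118-fold ratio between its highest and lowest group means. It had 5.50, 5.52 and 5.42 CPM at day 0, 2.02, 1.57 and 2.74 at day 1, 28.2, 37.8 and 24.6 at day 3, and 303, 252, 117, 263 and 310.3 at day 5. None of these 4 groups overlapped another. The fall to day 1 was modest (log2 -1.37, SE 0.46, adjusted p 0.028), and it was not called without replicate 1, 2 or 3 of day 0 or replicate 1 or 2 of day 1 (adjusted p 0.071 to 0.14), nor with limma on log2(TPM + 1) (0.44) or log2(TPM + 0.1) (0.12). The rises to day 3 (log2 3.83, SE 0.48, adjusted p 8.3e-08) and from there to day 5 (log2 3.04, SE 0.43, adjusted p 1.5e-06) were called. Day 5 replicate 3 was the low well.

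After day 5 the SFRP5 means declined, to 137 ± 30.8 CPM at day 7 (SD, n = 5), 80.9 ± 33.7 at day 9 (SD, n = 5) and 38.0 ± 16.8 at day 90 (SD, n = 3). The step from day 5 to day 7 was not called (log2 -0.86, SE 0.32, adjusted p 0.12), and it was called without day 5 replicate 3 (log2 -1.04, adjusted p 0.046). Levels at day 9 stayed above day 0 by log2 3.88 (SE 0.45, adjusted p 5.5e-09). Day 90 was lower than day 9 (log2 -1.09, SE 0.39, adjusted p 0.024), with wells that overlapped. This last call was lost without replicate 1 or 2 of day 9 or replicate 4 or 5 of day 90 (adjusted p 0.058 to 0.17), with only both groups in the fit (0.057) and with the replicate block (0.067).

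FRZB, the family member also named SFRP3, was called in none of the 13 comparisons. At several times from day 5 on its level differed strongly between wells of the same day. Its CPM was 3.13, 3.03 and 2.73 in pluripotent cells and 9.23, 8.92 and 8.29 at day 0. At day 9 it was 21.2, 60.5, 10.9, 20.1 and 23.4, and at day 11 it was 60.0, 162, 12.6, 11.4 and 13.1. The day 9 wells were all above the day 0 wells, while 3 day 11 wells stood within the range of day 7 wells. The difference of day 9 from day 0 was log2 1.63 (SE 0.70, adjusted p 0.054). Alternatives put it on the other side of the threshold, with an adjusted p of 0.042 with no count filter, 0.047 with a filter of 1 CPM in 3 libraries, 0.0092 with only both groups in the fit, 0.034 with DESeq2 and 0.036 without day 9 replicate 3. For day 0 against pluripotent cells the log2 value was 1.57 (SE 0.78, adjusted p 0.25), and 1.60 (adjusted p 1.4e-05) when only those groups entered the fit. Their wells did not overlap, with SDs of 0.480 and 0.208 CPM, against 65.2 at day 11. The main fit has 1 spread per gene over all groups, so its p-value does not measure the spread of those wells alone.

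At days 5, 7, 9, 11 and 14 the wells with the most FRZB were those with the most endoderm and liver genes (FOXA2, SOX17, AFP, TTR, APOA1, ALB). At days 20, 30 and 90 they were not. At day 5 the sum was 777 CPM in the well with 20.9 CPM of FRZB, and at day 7 it was 1007 in the well with 17.1. At day 11 these 6 genes, all above the floor, summed to 4504 and 8596 CPM in replicates 1 and 2, whose FRZB was 60.0 and 162, and to 171, 167 and 158 in the other 3. The cardiomyocyte genes were lowest in the same replicates. At day 9 the sum was 6109.6 in replicate 2, the well with 60.5 CPM of FRZB, and 473 to 1750.3 in the others. At day 14 it was 3835, 4008 and 2431 beside 68.4, 77.5 and 13.2 CPM of FRZB. At day 20 it was 1758, 931 and 3982 beside 75.1, 23.5 and 19.9 CPM of FRZB, so the well with the highest sum had the lowest FRZB. At day 30 it was 40.1, 289 and 20.2 beside 13.4, 23.2 and 37.5 CPM of FRZB, so the well with the lowest sum had the highest FRZB. The day 90 wells had FRZB at 53.4, 47.3 and 23.8 CPM with the list at 8.79, 134 and 9.41, so high FRZB also occurred where that sum was low. The part of these cells in the FRZB values was not tested.

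**Figure D2:**
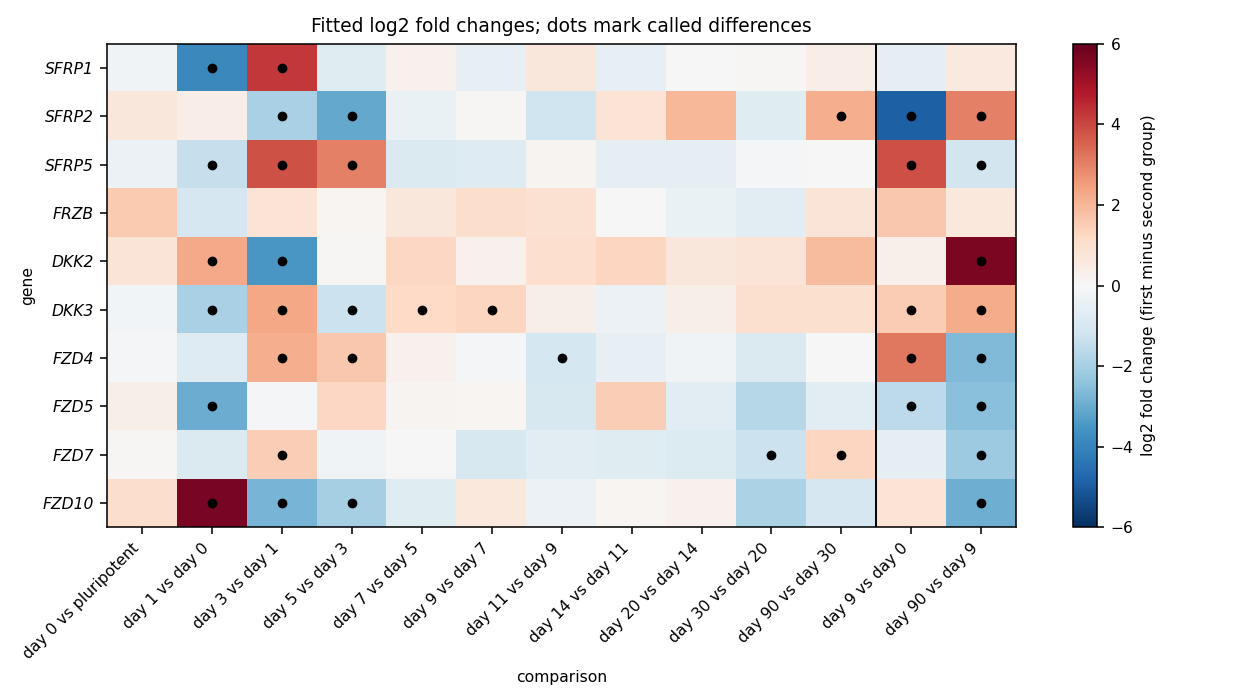
Fitted log2 fold change of each member (rows) in 11 steps between neighbouring times and 2 longer spans (columns, right of the line); the colour scale ends at -6 and 6, and black dots mark called values. Among the 11 steps, dots crowd into the columns for day 1, day 3 and day 5, which hold 6, 8 and 5 of them. The longer spans, day 9 against day 0 and day 90 against day 9, hold 5 and 8, and the FRZB row has 0.

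DKK3, a divergent Dickkopf protein that is secreted by many adult tissues, was called in 7 comparisons and had its highest mean CPM at day 90. Its CPM was 29.8, 34.8 and 30.3 at day 0, 9.00, 6.07 and 9.34 at day 1, and 52.2, 34.0 and 34.2 at day 3. The day 1 wells lay below every other well of the series. DKK3 fell to day 1 (log2 -1.96, SE 0.29, adjusted p 3.9e-06) and rose to day 3 (log2 2.30, SE 0.30, adjusted p 1.2e-07). It fell again to 17.3, 16.5, 16.8, 12 and 18.5 CPM at day 5 (log2 -1.31, SE 0.25, adjusted p 1.6e-04). Levels then rose to 34.8, 32.8, 34.7, 36.3 and 45.4 CPM at day 7 (log2 1.18, SE 0.22, adjusted p 3.2e-04). At day 9 they had risen further, to 89.8, 61.9, 84.2, 73.3 and 143 CPM (log2 1.30, SE 0.22, adjusted p 3.9e-04). In each of these steps the wells of the groups did not overlap. With limma on log2(TPM + 1) the rises to day 7 (log2 0.83, adjusted p 0.052) and day 9 (log2 1.03, adjusted p 0.057) were not called, and on log2(TPM + 0.1) that to day 7 fell short in fold (log2 0.96, adjusted p 0.032).

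From day 9 to day 20 the DKK3 wells overlapped from group to group. The day 30 wells had 189.7, 238 and 230.3 CPM and the day 90 wells 385, 519 and 369, each group above all wells of every earlier one. In TPM the wells of these days overlapped, with means of 62.4 at day 30 and 61.5 at day 90. Neither step was called, with log2 0.94 (SE 0.28, adjusted p 0.057) at day 30 against day 20 and 0.95 (SE 0.28, adjusted p 0.027) at day 90 against day 30, the latter short of the fold threshold only. Without day 20 replicate 3, day 30 against day 20 was called (log2 1.32, adjusted p 0.012). Over the longer spans DKK3 was higher at day 9 than at day 0 (log2 1.51, SE 0.26, adjusted p 1.0e-05) and higher at day 90 than at day 9 (log2 2.23, SE 0.24, adjusted p 2.1e-09).

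DKK2, which binds LRP5 and LRP6 and can restrain or weakly activate the pathway depending on context, was near the detection floor until day 9, apart from day 1. Day 0 wells had 8, 11 and 6 counts (0.268, 0.366 and 0.207 CPM). Day 1 wells had 50, 0 and 76 counts (1.68, 0 and 2.37 CPM), so 1 well had no read while the others were above every day 0 well. Day 3 wells had 4, 2 and 3 counts. The rise to day 1 was called (log2 2.25, SE 0.82, adjusted p 0.043), but not without replicate 1, 2 or 3 of day 0 or replicate 1 or 3 of day 1 (adjusted p 0.080 to 0.25), nor with sequencing lane as a term (adjusted p 0.061), only both groups in the fit (0.071) or the replicate number as a block (0.26). With limma it was log2 0.28 (adjusted p 0.62) on log2(TPM + 1) and 0.95 (adjusted p 0.45) on log2(TPM + 0.1). Without day 1 replicate 2, the well at 0, it was log2 2.87 (adjusted p 0.0039). Pooled over wells, the ratio of day 1 to day 0 was 4.82, with an exact 95% interval of 3.12 to 7.73 that covers counting error only. The ratio of day 3 to day 1 was 0.0845 (0.0378 to 0.166), and the fitted fall was log2 -3.50 (SE 0.92, adjusted p 0.0035). The fall was log2 -2.82 without day 1 replicate 3 and -4.10 without day 1 replicate 2. It was not called by limma on log2(TPM + 1) (log2 -0.33, adjusted p 0.45) or on log2(TPM + 0.1) (log2 -1.28, adjusted p 0.19).

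Later DKK2 was higher, although no single step was called. It was 0.190, 0.135, 0.354, 0.358 and 0.727 CPM at day 9, 3.03, 2.60 and 2.74 at day 20, 2.16, 7.32 and 4.84 at day 30, and 31.5, 1.74 and 20.4 at day 90. All day 90 wells were above all day 9 wells, and the difference was 50.9-fold (log2 5.67, SE 0.71, adjusted p 3.5e-08), or log2 4.98 without day 90 replicate 2. With limma it was log2 1.06 on log2(TPM + 1) and 2.65 on log2(TPM + 0.1), and it stayed called on both. Day 90 replicate 4 was below all day 30 wells. Day 90 against day 30 was log2 1.91 (SE 0.72, adjusted p 0.092), and it was called without that well (log2 2.47, adjusted p 0.020). The same well had the lowest SFRP2 (1.46 CPM) and the lowest sum of fibroblast and smooth muscle genes (348 CPM) of day 90. It also had the highest sum of cardiomyocyte genes of that day, 14185 CPM against 10689.9 and 11439. At day 30 the fibroblast and smooth muscle sums were 1150.1, 1432 and 920.0 CPM. The highest of these sums was in the well with the most DKK2, but the lowest was not in the well with the least. The part of these cells in the DKK2 values was not tested.

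FZD7, a main Frizzled receptor of pluripotent stem cells, was high early and low late. It was at 254, 279.7 and 261 CPM at day 0, 130.1, 168 and 130.1 at day 1 and 299, 449 and 437 at day 3. The day 1 wells were below both neighbours in time. The drop to day 1 had an adjusted p of 0.022 but a log2 change of -0.89 (SE 0.29), under the fold threshold, and the rise to day 3 was called (log2 1.47, SE 0.29, adjusted p 1.7e-04). From 345 ± 55.5 CPM at day 7 (SD, n = 5) it went to 175 ± 28.5 at day 9 (SD, n = 5), with no overlap. That step was log2 -0.98 (SE 0.22, adjusted p 0.010), and it was called without any 1 of replicates 2, 3 and 10 of day 7 and replicates 2 and 3 of day 9 (adjusted p 0.014 to 0.018) and with lane as a term (log2 -1.05).

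By day 30 FZD7 was at its lowest, with 18.2, 16.4 and 13 CPM against 39.4, 25.2 and 50.4 at day 20. It fell between these days (log2 -1.27, SE 0.30, adjusted p 0.011), a call lost without day 20 replicate 3 (log2 -0.97, adjusted p 0.073) or day 30 replicate 10 (adjusted p 0.057), with only both groups in the fit (0.39) and with limma on log2(TPM + 1) (0.33) and log2(TPM + 0.1) (0.17). At day 90 it was 60.9, 26.5 and 28.6 CPM, above all day 30 wells. This rise (log2 1.28, SE 0.30, adjusted p 0.0052) was lost without day 90 replicate 2 (log2 0.79, adjusted p 0.12) with lane as a term (log2 0.99, adjusted p 0.063) and with only both groups in the fit (adjusted p 0.30). With limma it was log2 0.23 (adjusted p 0.66) on log2(TPM + 1) and 0.30 (adjusted p 0.56) on log2(TPM + 0.1), in a comparison where TPM put the median gene 0.81 log2 units lower than counts did. Day 90 stayed under day 9 by log2 -2.18 (SE 0.28, adjusted p 8.8e-08).

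FZD4, a receptor for Wnts and for the non-Wnt ligand Norrin, had its high levels at days 5 to 9. Its CPM was 12.5, 18.2 and 13 at day 1, 84.7, 54.5 and 60.8 at day 3, and 197, 163, 159, 209 and 287 at day 5. Each of these groups was wholly above the one before. FZD4 rose to day 3 (log2 2.20, SE 0.30, adjusted p 5.1e-07) and to day 5 (log2 1.61, SE 0.28, adjusted p 4.1e-05), while day 1 against day 0 was log2 -0.79 (SE 0.29, adjusted p 0.050). The rise to day 5 was not called by limma on log2(TPM + 1) (log2 1.13, adjusted p 0.056) or log2(TPM + 0.1) (log2 1.24, adjusted p 0.060). The levels at day 9 were 173, 143, 283, 356 and 182 CPM, 9.07-fold above day 0 (log2 3.18, SE 0.30, adjusted p 4.1e-11).

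At day 11 FZD4 had 83.5, 80.5, 124, 125 and 133 CPM, all below day 9. The fall was close to the fold threshold (log2 -1.06, SE 0.23, adjusted p 0.0050). Without replicate 3 or 4 of day 9 or replicate 1 or 2 of day 11 it was log2 -0.84 to -0.97, and with RNA integrity as a term -0.95. With the replicate block (log2 -0.94, adjusted p 0.10) and with limma on log2(TPM + 1) (log2 -0.85, adjusted p 0.74) and log2(TPM + 0.1) (log2 -0.91, adjusted p 0.71) the adjusted p missed the threshold too. The 2 lowest day 11 wells were replicates 1 and 2, those with high endoderm and liver genes. Day 30 against day 20 was log2 -0.87 (SE 0.29, adjusted p 0.11), and it was called without day 20 replicate 2 (log2 -1.13, adjusted p 0.039). By day 90 the levels were 48.9, 27.0 and 30.8 CPM, below every day 9 well (log2 -2.67, SE 0.29, adjusted p 2.1e-09).

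FZD5, another canonical Wnt receptor, had its highest means at day 0 and in pluripotent cells. The pluripotent wells had 122, 139.9 and 138 CPM, the day 0 wells 162, 176 and 163, the day 1 wells 17.3, 28.4 and 18.1, and the day 3 wells 12.3, 18.6 and 30.6. All day 1 and day 3 wells were below all pluripotent and day 0 wells. The fall from day 0 to day 1 was 7.86-fold (log2 -2.97, SE 0.53, adjusted p 6.5e-05), and the level at day 9 was still lower than at day 0 (log2 -1.55, SE 0.43, adjusted p 0.0030). Day 5 wells, at 32.8 to 78.4 CPM, were all above day 3 wells. That step was log2 1.22 (SE 0.47, adjusted p 0.066), and it was called by DESeq2 (adjusted p 0.029), with no count filter (0.047), with the stricter filter (0.049), with only both groups in the fit (0.012) and without libraries of RNA integrity under 8 (0.042).

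In late cultures single wells set the FZD5 means. Day 14 wells had 33.8, 21.8 and 185 CPM, so replicate 6 was above every day 0 well while the others stood among the day 11 wells, and the mean was 80.2 ± 90.9 (SD, n = 3). Against day 11 the log2 value was 1.46 (SE 0.43, adjusted p 0.075). It was called by DESeq2 (adjusted p 0.029), without day 14 replicate 3 (log2 1.84, adjusted p 0.0082) and without day 11 replicate 2 (log2 1.58, adjusted p 0.048). Day 30 against day 20 was log2 -1.69 (SE 0.51, adjusted p 0.064), and it was called without day 30 replicate 3 (log2 -2.47, adjusted p 0.0097), with no count filter (adjusted p 0.041), with RNA integrity as a term (0.041) and by DESeq2 (0.021). Day 90 held the lowest mean, with 6.63, 15.8 and 8.01 CPM, below all day 9 wells (log2 -2.50, SE 0.50, adjusted p 1.1e-04).

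FZD10, a Frizzled receptor that was scarce at most times here, had a single peak at day 1. It was at 0.470, 0.433 and 0.552 CPM at day 0, 28.2, 21.0 and 27.7 at day 1, and 5.01, 2.94 and 3.09 at day 3. The day 1 wells stood above every other well of the series, and the day 3 wells above all wells of the remaining groups. FZD10 rose 52.3-fold to day 1 (log2 5.71, SE 0.74, adjusted p 3.0e-07) and fell to day 3 (log2 -2.80, SE 0.63, adjusted p 7.4e-04). It fell again to 0.558 to 1.52 CPM at day 5 (log2 -1.99, SE 0.55, adjusted p 0.0086), a call lost without day 3 replicate 1 (log2 -1.69, adjusted p 0.063), with the replicate block (log2 -1.75, adjusted p 0.091) and, in fold only, with limma on log2(TPM + 1) (log2 -0.65). From day 7 on it was at or below 1.61 CPM, apart from 2.87 CPM in day 20 replicate 2. Day 30 against day 20 was log2 -1.91 (SE 0.84, adjusted p 0.25), and it was called without day 20 replicate 3 (log2 -2.54, adjusted p 0.039). At day 90 the 3 wells had 3, 0 and 3 counts. Pooled over wells, the level at day 90 was 0.130 of that at day 9 (exact 95% interval 0.0466 to 0.291, counting error only), and the fitted difference was called (log2 -2.92, SE 0.83, adjusted p 0.0047), but not with limma on log2(TPM + 1) (log2 -0.16, adjusted p 0.32).

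Levels of different genes can be compared only per length, so shares of summed TPM were taken within each family. Among the 10 Frizzled genes FZD7 held the largest share in every well from pluripotent cells to day 7, at 55.6 ± 1.27% in pluripotent cells (SD, n = 3), 46.0 ± 6.14% at day 1 (SD, n = 3) and 60.0 ± 5.30% at day 3 (SD, n = 3). FZD5 was the next at day 0, with 19.2 ± 0.254% (SD, n = 3), and held 3.86 ± 1.04% at day 1 (SD, n = 3). FZD10 reached 9.85 ± 1.71% at day 1 (SD, n = 3). FZD4 grew to 18.7 ± 5.65% at day 9 (SD, n = 5) while FZD7 was at 28.6 ± 4.19%. At day 90 the 4 Frizzled members together made up a small part, with FZD7 at 6.84 ± 4.03%, FZD4 at 3.21 ± 1.39%, FZD5 at 0.926 ± 0.272% and FZD10 at 0.0175 ± 0.0152% (SD, n = 3 each). FZD1, a receptor outside the 10 genes, held 47.0 ± 7.14% there (SD, n = 3) against 0.358 ± 0.0365% in pluripotent cells.

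Within the SFRP family the leading gene changed with time. SFRP1 held 56.0 ± 2.55% of family TPM at day 0 and 6.68 ± 2.71% at day 1, where SFRP2 held 89.1 ± 4.09% (SD, n = 3 each). SFRP1 led again at day 3 with 69.4 ± 4.62% (SD, n = 3). At day 5 SFRP5 led in 5 of 5 wells with 72.0 ± 7.54% (SD, n = 5), and at day 7 with 55.3 ± 4.93%. From day 14 to day 90 SFRP1 was the highest in every well, for example at 56.2 ± 1.29% at day 90 (SD, n = 3). Of the Dickkopf genes, DKK3 held 97.9 ± 0.0828% in pluripotent cells, 1.57 ± 0.697% at day 1 and 92.4 ± 0.821% at day 90 (SD, n = 3 each). DKK1, a Wnt target gene and Wnt antagonist, held 72.5 ± 3.19% at day 1. DKK2 held at most 2.77 ± 2.37%, at day 90.

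**Figure D3:**
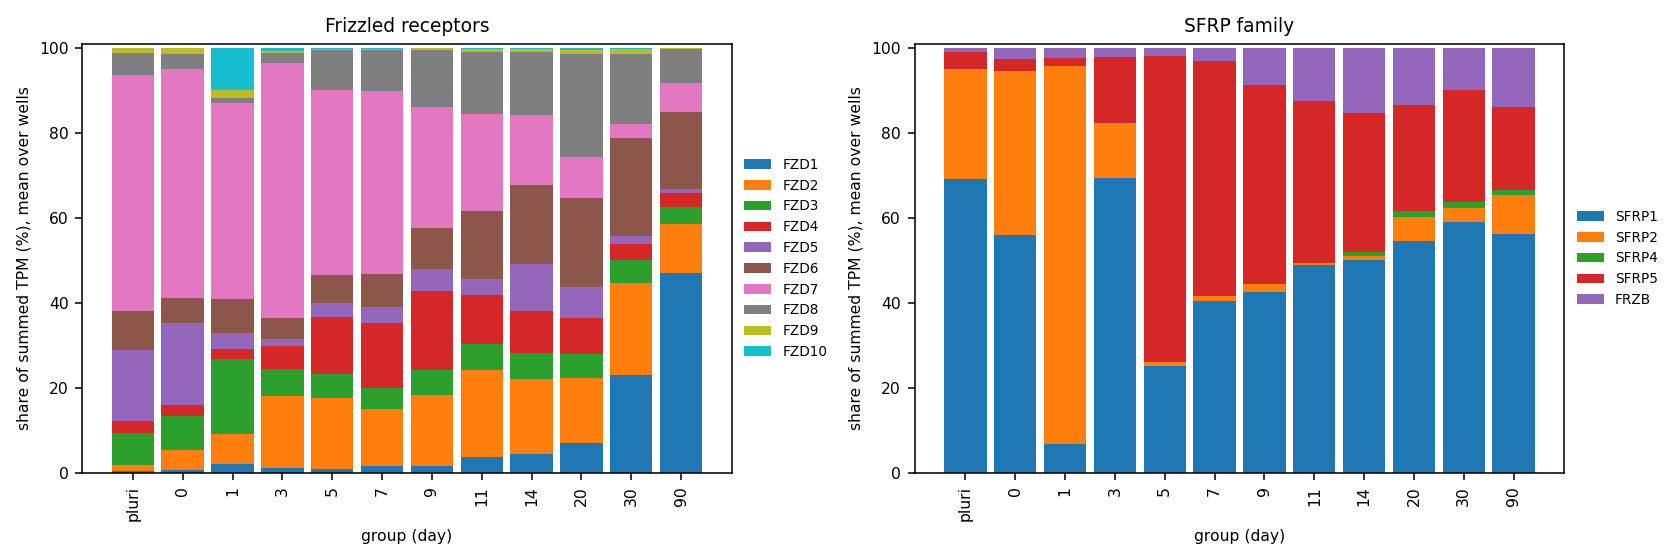
Mean share of summed TPM (percent, stacked bars) held by each of the 10 Frizzled genes (left) and each SFRP gene (right) in each group. The day 1 bar shows SFRP2 at 89.1% of its family, and the day 90 bar shows FZD1 at 47.0% of the Frizzled genes.

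The 35 other genes of Wnt reception (further antagonists, Frizzled receptors, co-receptors, R-spondins with their LGR receptors, and receptor-removing ligases) all passed the filter. At day 1 against day 0, 12 of 35 rose and 3 fell (13.5% of all genes called, 3.86% higher and 9.66% lower). The largest rises were of DKK4 and DKK1, both Wnt antagonists, with DKK1 going from 2.23 to 171 CPM (log2 6.26, SE 0.50, adjusted p 1.1e-11). FZD8 (log2 -2.20) and LGR4 (log2 -1.98) fell most. At day 3 against day 1, 7 rose and 6 fell (17.8% of all genes called, 11.0% higher and 6.80% lower). The rises were led by the R-spondin receptors LGR5 (log2 5.82) and LGR4 (log2 2.55). The falls were led by DKK4 (log2 -6.18) and APCDD1 (log2 -2.78), a membrane-bound Wnt inhibitor. The secreted proteins thus did not move as 1 group. At day 1 the members SFRP1, DKK3 and SFRP5 fell, DKK2 rose, and SFRP2 and FRZB were not called. Of the 12 other secreted antagonists and extracellular inhibitors, 6 rose, DKK1, DKK4, NOTUM and CER1 among them, and 1 fell.

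At day 5 against day 3, 5 of the 35 rose and 8 fell (10.1% of all genes called, 5.75% higher and 4.34% lower). The rises were led by the R-spondin RSPO2 (log2 5.24) and the LRP-binding antagonist SOST (log2 4.35). The falls were led by CER1 (log2 -6.71) and DKK4, which had no well above 3 counts at day 5. From day 5 to day 30 each step called at most 5 of the 35 (0.0479% to 3.65% of all genes). At day 90 against day 30, 4 rose and 3 fell (5.09% of all genes called). The rises were led by SOSTDC1 (log2 3.29) and the Dickkopf co-receptor KREMEN2 (log2 2.28), and the falls by LGR5 (log2 -2.64) and RSPO4 (log2 -2.16). Between day 9 and day 0, 16 rose and 5 fell (31.7% of all genes called, 17.1% higher and 14.6% lower). Between day 90 and day 9, 7 rose and 9 fell (23.9% of all genes called in either direction). FZD1 was 520.2 ± 167 CPM at day 90 and 19.0 ± 5.08 at day 9 (log2 4.77, SE 0.33, adjusted p 3.4e-14), while FZD4, FZD5, FZD7 and FZD10 were all lower at day 90.

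**Figure D4:**
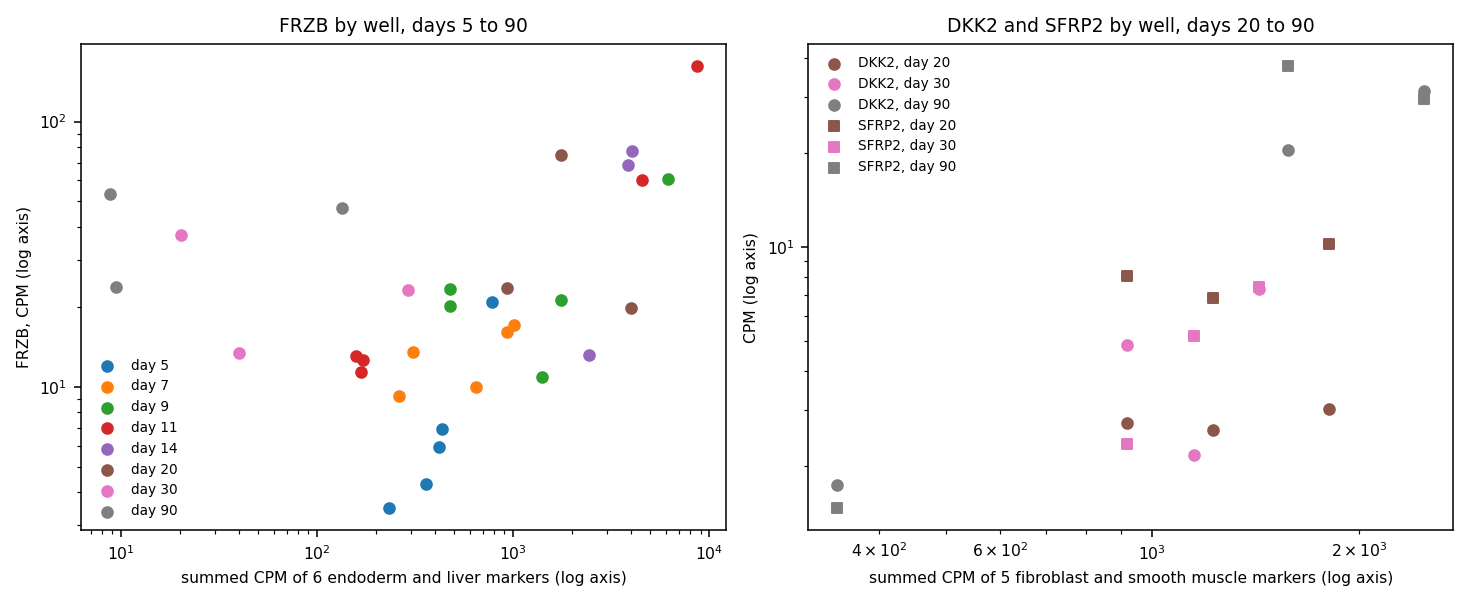
Left, FRZB CPM against the summed CPM of 6 endoderm and liver genes in each well of days 5 to 90; right, DKK2 (circles) and SFRP2 (squares) CPM against the summed CPM of 5 fibroblast and smooth muscle genes in each well of days 20 to 90 (all axes log, colours are days). At day 11 the wells with 4504 and 8596 CPM of endoderm and liver genes have 60.0 and 162 CPM of FRZB, at day 20 the well with 3982 has 19.9, and at day 90 the well with 348 CPM of fibroblast and smooth muscle genes has 1.46 CPM of SFRP2 and 1.74 CPM of DKK2.

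Time courses were compared as Pearson correlations of log2(CPM + 0.5) over the 12 group means, given as a description since the points share libraries. Among the members SFRP5 and FZD4 were most alike (r = 0.91), followed by FRZB and DKK3 (0.83). DKK2 and FZD7 were most opposed (-0.91), followed by SFRP2 and SFRP5 (-0.90). Of 12053 protein-coding genes searched, the nearest to FZD10 were the homeobox genes CDX1 (0.987) and GBX2 (0.974), both with their highest mean at day 1. FZD4 was nearest to GATA2 (0.982), a transcription factor of blood and endothelium, and to the BMP antagonist CHRD (0.978). The nearest genes were MDK (0.983) and JUP (0.973) for SFRP5, DCLK1 (0.973) and CDCP1 (0.958) for SFRP2, and BNIP3L (0.920) and CGNL1 (0.894) for SFRP1. DKK2 was nearest to CKMT2 (0.988), a mitochondrial creatine kinase of striated muscle, and SGCD (0.976), a sarcoglycan of muscle membranes, and DKK3 to PFKP (0.981) and OPTN (0.975). FZD7 was nearest to HIST1H3D (0.983) and MTFR1 (0.978), and FZD5 to HS3ST5 (0.927) and C2CD4C (0.921).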

How the data were processed

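Total RNA of 44 H1 wells was made into stranded libraries and sequenced as paired-end reads, per the labels. Reads were processed with cutadapt, STAR 2.5.2b and RSEM 1.2.31 on hg38, per the submitters' processing notes. The annotation and the strand setting are not given in the sources used here. The authors deposited estimated counts per gene, unscaled, of which 93.8% were whole, and TPM, scaled for length to 1 sum per library. TPM is affected by non-coding RNA: protein-coding genes held 15.4% to 41.9% of it. A deposited table gives an RNA integrity score for each library and its sequencing lane (5 lanes). Of 60499 identifiers, 56769 were found in GENCODE release 29.

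Counts were rounded, filtered with filterByExpr (22955 genes left), scaled by TMM and fitted with edgeR 4.0.16 (R 4.3.3), with 1 mean per group over all 44 libraries. Each gene had 1 estimate of the spread shared by all groups, so a p-value for a pair of groups also carries the spread of the others. p-values were adjusted by Benjamini-Hochberg over all genes. Counts have no molecular identifiers, so intervals and the floor of 3 counts cover counting error only. Promoters come from a RefSeq table (GRCh38.p14). Alternatives were another scaling (RLE), filters, fits of the compared groups only, a replicate block, lane, RNA integrity, leaving out libraries, DESeq2 1.42.0, and limma 3.58.1 on log2(TPM + 1) and log2(TPM + 0.1). The alternatives on RNA integrity were added after seeing the data. The steps were run on simulated data with known changes in genes above the floor. That check does not cover genes near the floor or genes whose wells differ more than is usual at their level.

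All 10 members were described. Of the 35 other Wnt genes, at most 2 called rises and 2 called falls per comparison, those of largest size, were given values, besides FZD1, NOTUM, CER1 and APCDD1, named after their values were seen. For each member the 2 protein-coding genes with the highest correlation over group means were named, among genes with at least 10 CPM in their highest group. The members and lists were chosen with earlier results of these data known. The main fit did not pair wells by replicate number. As a check, deviations from group means were correlated between same-numbered wells. Over the comparisons with at least 3 pairs, they ran from -0.11 to 0.62, and in none were all above 0.1. For day 9 against day 7 the mean was 0.32, and 4 of 5 wells were most like their own number. With 2 pairs they were 0.52 to 0.56 for day 20 against day 14 and 0.22 to 0.31 for day 14 against day 11. They were 0.14 to 0.18 for day 90 against day 9, -0.05 to 0.47 for day 11 against day 9 and -0.18 to 0.04 for day 30 against day 20. Some later steps may thus be paired. The genes most like FRZB in time course are not reported here.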

Additional observations from a re-analysis of the deposited data

Results flagged for a closer look

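In groups of 5 wells, the highest or lowest well of a member was set against the others by Dixon's gap test. Of 40 member groups, 7 had a well apart. The cut flags about 1 in 20 groups of normally distributed values. CPM need not be normal and the members share wells, so whether 7 is an excess was not tested. In 2 wells more than 1 member stood apart. Day 7 replicate 10 had 7.78 CPM of SFRP2, with the other 4 wells at 0.914 to 1.81, and 45.4 CPM of DKK3, with the others at 32.8 to 36.3. Day 9 replicate 4 had 8.46 CPM of SFRP2, with the others at 0.813 to 2.65, and 106 CPM of FZD5, with the others at 34.0 to 52.1. FRZB stood apart at 20.9 CPM in day 5 replicate 3, with the others at 3.48 to 6.91, and at 60.5 CPM in day 9 replicate 2, with the others at 10.9 to 23.4. Both of these wells had the highest sum of endoderm and liver genes of their day, 777 and 6109.6 CPM. FZD10 was at 1.11 CPM in day 11 replicate 6, with the others at 0.479 to 0.600, a level of few counts.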

How the results depend on the processing

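No called member value reversed under any setting run. Of 38 called values, 38 kept their call with RLE scaling, with no count filter, with 1 CPM in 3 libraries and with DESeq2, 35 with lane as a term, 37 with RNA integrity as a term, 37 without the 2 libraries of integrity under 8, 26 with limma on log2(TPM + 1) and 28 on log2(TPM + 0.1). Fits of the compared groups only kept 32 of 37. Members called went from 0 to 1 for day 0 against pluripotent cells with only the groups compared. In the comparisons with more calls they moved too, and not all of those moves are listed. On log2(TPM + 1) day 1 against day 0 went from 6 to 4 and day 3 against day 1 from 8 to 7. On the same scale day 5 against day 3 went from 5 to 4 and day 90 against day 9 from 8 to 7. With DESeq2 day 5 against day 3 and day 9 against day 0 each went from 5 to 6 members called. For day 7 against day 5 the members called went from 1 to 0 on both TPM scales, and for day 9 against day 7 from 1 to 2 with lane and to 0 on log2(TPM + 1). For day 11 against day 9 they went from 1 to 0 with RNA integrity as a term and on both TPM scales, and for day 14 against day 11 from 0 to 1 with DESeq2. For day 30 against day 20 they went from 1 to 2 with no filter, RNA integrity as a term or DESeq2, and to 0 with only the groups compared and on both TPM scales. For day 90 against day 30 they went from 2 to 1 without low-integrity libraries and to 0 with only the groups compared, lane as a term and both TPM scales. The cause was not tested. The TPM scale moved the median gene against counts by -0.81 (day 90 against day 30) to 0.54 (day 14 against day 11) log2 units.

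With 1 library left out, 244 of 276 refits of called values kept the call. The members called were 0 to 0 for day 0 against pluripotent cells, 4 to 5 for day 1 against day 0, 7 to 8 for day 3 against day 1, 4 to 5 for day 5 against day 3, 1 to 2 for day 7 against day 5, 1 to 2 for day 9 against day 7, 0 to 1 for day 11 against day 9, 0 to 1 for day 14 against day 11, 0 to 0 for day 20 against day 14, 0 to 2 for day 30 against day 20, 0 to 3 for day 90 against day 30, 5 to 6 for day 9 against day 0 and 7 to 8 for day 90 against day 9. With the replicate block, where numbers are shared, 31 of 36 called values kept the call. Lost were DKK2 at day 1 against day 0, FZD10 at day 5 against day 3, FZD4 at day 11 against day 9, and SFRP2 and SFRP5 at day 90 against day 9, where SFRP2 went to log2 1.28 (adjusted p 0.51). FZD7 at day 11 against day 9 gained a call (log2 -1.29, adjusted p 0.039). Days 90 and 30 share 0 numbers, so no block could be fitted there. Counts of 3 or fewer in a library limit DKK2 and FZD10.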
